A study of Mus musculus with 8 samples.

Results

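The 9 genes described here encode the enzymes that write, maintain and remove DNA methylation: Dnmt1 and its partner Uhrf1, the de novo group Dnmt3a, Dnmt3b and Dnmt3l, the oxidising enzymes Tet1, Tet2 and Tet3, and the DNA glycosylase Tdg. They were chosen by name, were found in the count table by their Ensembl identifiers, and make up 9 of its 52636 genes. The tissue was mouse epiblast at embryonic day 5.5, the layer of the implanting embryo that gives rise to the body. All embryos carried the genotype Sox2Cre;CRAFR26, in which Sox2Cre acts in the epiblast and the cRAF construct turns on the kinase ERK when 4-hydroxytamoxifen (4OHT) is added. The mouse line was made by placing targeted embryonic stem cells into morulas, and the labels name a pair of clones, clone 4 and clone 8.

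Embryos in IVC2 medium received 250 nM 4OHT for 4 h or ethanol vehicle, and the extraembryonic layers were dissected off. Each condition of each clone had 2 libraries, and each library pooled 10 epiblasts and used 7 ng of RNA. The vehicle libraries are given as 0 h in their titles and as 4 h in ethanol in their treatment. If they were taken without culture, 4 h of culture and 4OHT cannot be told apart. No library lacked the construct, so an effect of 4OHT itself and an effect of ERK cannot be told apart either. Nothing in the labels says whether the pools of a clone came from separate litters, so the p-values measure the spread between these pools.

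In mammals, methyl groups on cytosine lie mainly at CpG sites. Dnmt3a and Dnmt3b add them to unmethylated DNA, and Dnmt3l, which has no catalytic activity, binds and stimulates both. After DNA replication, Uhrf1 recognises hemimethylated sites and brings in Dnmt1, which restores the methyl group on the new strand. Tet enzymes oxidise 5-methylcytosine, and Tdg excises the more oxidised products so that base excision repair can put back an unmodified cytosine. The epiblast gains methylation across most of its genome around implantation, and Dnmt3b is its best known de novo enzyme.

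The promoter windows of Dnmt3b, Dnmt1 and Tet1 are printed because Dnmt3b was the most abundant member and the tests below turned on Dnmt1 and Tet1. Each window holds the 250 bases before and the 50 bases after a RefSeq start site in GRCm38.p6, and is written 5′ to 3′ on the gene's strand. Capitals mark matches, on either strand, to a fixed set of motifs: ETS (CCGGAAGT), AP-1 (TGANTCA), EGR (GCGNGGGCG), CRE (TGACGTCA) and E2F (TTTGGCGC or TTTCGCGC). The first window lies at chr2:153649199-153649498 on the plus strand, the second at chr9:20952574-20952873 on the minus strand and the third at chr10:62887275-62887574 on the minus strand.
Dnmt3b: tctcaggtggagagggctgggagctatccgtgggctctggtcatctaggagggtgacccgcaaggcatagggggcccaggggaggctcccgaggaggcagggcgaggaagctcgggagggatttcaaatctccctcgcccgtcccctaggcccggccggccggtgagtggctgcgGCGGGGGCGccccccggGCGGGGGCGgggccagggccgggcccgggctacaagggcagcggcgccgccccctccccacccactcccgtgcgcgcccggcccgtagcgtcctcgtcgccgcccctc
Dnmt1: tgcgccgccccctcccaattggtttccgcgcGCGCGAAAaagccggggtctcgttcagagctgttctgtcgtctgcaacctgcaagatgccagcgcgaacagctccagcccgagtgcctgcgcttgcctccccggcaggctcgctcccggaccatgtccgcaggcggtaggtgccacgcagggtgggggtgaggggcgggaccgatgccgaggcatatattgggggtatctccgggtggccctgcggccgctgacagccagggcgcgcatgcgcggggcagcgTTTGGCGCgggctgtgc
Tet1: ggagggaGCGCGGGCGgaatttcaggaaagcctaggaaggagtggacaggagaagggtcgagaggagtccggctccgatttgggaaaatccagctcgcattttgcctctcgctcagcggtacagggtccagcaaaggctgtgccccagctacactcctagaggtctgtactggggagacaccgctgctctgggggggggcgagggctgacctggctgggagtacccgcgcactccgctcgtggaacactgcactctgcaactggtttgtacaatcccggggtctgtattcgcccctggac
The Dnmt3b window held 30 CpG sites and a pair of EGR matches that began 75 and 58 bases before the start site. The Dnmt1 window held 33 CpG sites and E2F matches that began 219 bases before and 33 bases after the start site. The Tet1 window held 17 CpG sites and an EGR match that began 243 bases before the start site. The median over 32851 RefSeq promoters was 7 CpG sites. An EGR match was present in 5.55% of those promoters and an E2F match in 0.813%, against 3.89% for ETS, 7.81% for AP-1 and 1.79% for CRE. The EGR letters are nearly all G and C, and the Dnmt3b and Tet1 windows were 76.0% and 61.7% GC. The share over all promoters was not matched for GC content, so it is no test of the EGR matches. Dnmt1 has 3 starts in RefSeq, and the window printed was chosen because it held E2F matches. It belongs to the start that lies 7265 bp inside the outermost GENCODE start. The other Dnmt1 windows held 2 and 12 CpG sites and no match to any of the motifs. The choice fixed the E2F matches, so the 0.813% of all promoters is no test of them. The Tet1 start lies 21672 bp inside the outermost start of its gene. The counts do not tell which start was used, and a match is a stretch of letters, with no binding measured.

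Levels of different genes were compared as CPM (read counts scaled to library size, with TMM factors) per kilobase of exon, with exonic length taken over all annotated transcripts in GENCODE M21. Dnmt3b stood far above the other members at 529.5 ± 48.4 CPM per kb (SD, n = 8), which put it at rank 80 of 18299 genes. Uhrf1 followed at 83.6 ± 10.6 CPM per kb (SD, n = 8), at rank 815. Dnmt3a at 31.1 ± 4.74, Dnmt1 at 29.9 ± 5.75 and Tdg at 28.3 ± 7.54 CPM per kb (SD, n = 8 each) had overlapping ranges. Dnmt3a was above Dnmt1 in 5 of 8 libraries, and Dnmt1 was above Tdg in 7 of 8. Dnmt3l reached 14.1 ± 3.13 and Tet1 8.88 ± 2.38 CPM per kb (SD, n = 8 each); Dnmt3l was the higher of the pair in 7 of 8 libraries. Tet3 at 1.24 ± 0.298 and Tet2 at 0.255 ± 0.0506 CPM per kb (SD, n = 8 each) were lowest, at ranks 10322 and 14349, and neither range touched that of the next gene.

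Within the Dnmt3 family, Dnmt3b took 91.1% to 93.7% of the summed CPM per kb in each library. Among the Tet genes, Tet1 took 80.0% to 89.5% and Tet3 8.63% to 18.1%, with the highest Tet3 share in replicate 1 of clone 8 vehicle and the lowest in replicate 1 of treated clone 8. These shares rest on union exonic lengths, which are longest for Dnmt3a, Tet1, Tet2 and Tet3, so a gene whose long isoforms are unused reads low on this scale. Counting with regard to strand is not stated: Tdg shares 367 exonic bp with Glt8d2 on the opposite strand, Dnmt3a 133 bp with Dnmt3aos and Dnmt3l 67 bp with Aire, whose counts reached at most 10, 9 and 134 in any library.

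**Figure D1:**
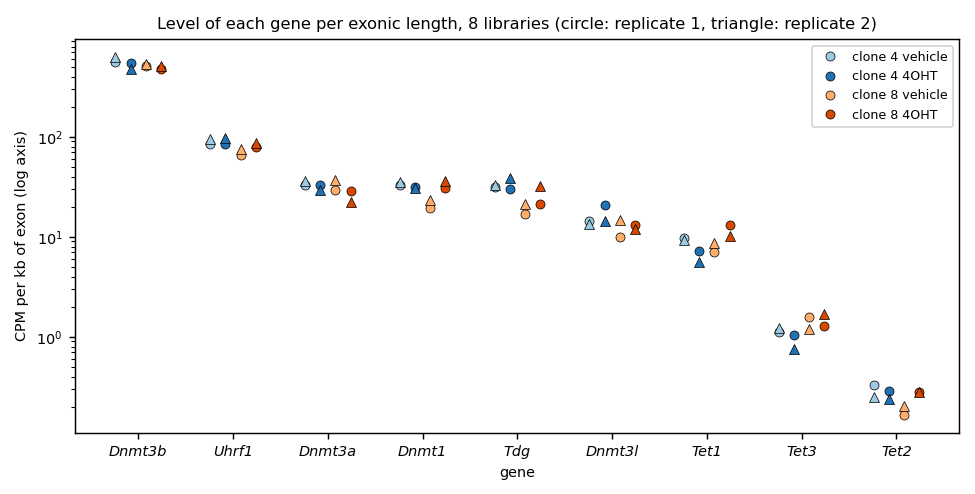
Level of each of the 9 genes in CPM per kb of exon (log axis) in the 8 libraries, coloured by clone and condition, with circles for replicate 1 and triangles for replicate 2. Dnmt3b lies between 471.8 and 624.3 CPM per kb in every library, and Tet2 lies at or below 0.328.

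Depth differed between conditions, with 33.3 to 38.0 M counts (M, mega) in the vehicle libraries and 56.4 to 72.5 M in the 4OHT libraries. The epiblast label was checked with 10 marker genes. Their summed CPM was 3265 to 3551 in the vehicle libraries and lower, 2621 to 3034, in the 4OHT libraries. Over both clones, 1 of the 10 had a log2 fold change above 0 with 4OHT. Markers of layers that the dissection should remove were also present, none of them at 0 in any library, and they differed between groups. The sum of 15 visceral endoderm markers was 546.8 to 892.3 CPM in vehicle and 2588 to 2924 CPM in 4OHT for clone 4, against 1804 to 1846 CPM in vehicle and 482.5 to 1290 CPM in 4OHT for clone 8. The sum of 12 extraembryonic ectoderm markers was 526.1 to 578.4 CPM in the clone 8 vehicle libraries and 932.7 to 1340 CPM in the other 6 libraries. The 10 ERK response genes summed to 1060 to 1079 CPM in vehicle and 1227 to 1237 CPM in 4OHT for clone 4, and to 727.3 to 935.8 CPM and 1205 to 1706 CPM for clone 8. In clone 4, 8 of these 10 rose, with 0 at an edgeR adjusted p under 0.05. In clone 8, 9 of 10 rose, and 5 higher and 1 lower passed that threshold. Egr1 alone was at 379.1 CPM in replicate 2 of treated clone 8, against 74.7 CPM in replicate 1. The clone 8 vehicle libraries also stood apart in the balance of long and short genes: the median log2 difference of long from short genes, centred on all libraries, was -0.364 and -0.223 there and lay between 0.007 and 0.195 elsewhere. Results that rest on the clone 8 vehicle libraries come from libraries that also differ in markers of other layers and in this length balance. The part of these in the results was not tested, except where a value corrected for length and GC content is given. In pooled tissue, fewer cells of a type and less RNA per cell cannot be told apart.

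**Figure D2:**
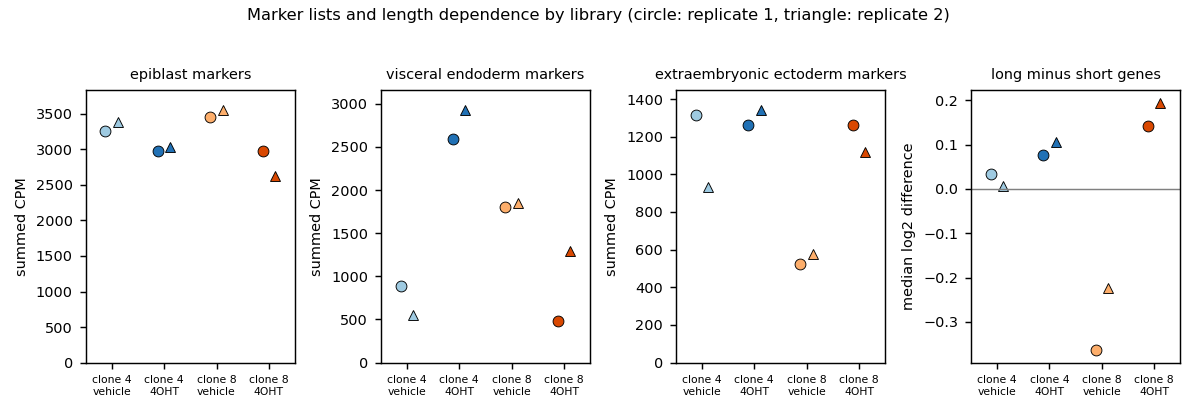
Summed CPM of the epiblast, visceral endoderm and extraembryonic ectoderm markers in each library, and, at right, the median log2 difference between long and short genes. The clone 8 vehicle libraries (light orange) hold the lowest extraembryonic ectoderm sums, 526.1 and 578.4 CPM, and the only negative length values, -0.364 and -0.223.

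The treatment was compared with vehicle over both clones, within clone 4 and within clone 8, and the clones were compared with each other. By the fit chosen, Dnmt1 was higher with 4OHT in clone 8 and the Tet1 response differed between the clones. No member passed the test over both clones or within clone 4. The Dnmt1 response missed the threshold for a difference between the clones narrowly, and several alternative fits called it. Calls were made with edgeR's quasi-likelihood test at an adjusted p under 0.05 over 18321 tested genes, among which all 9 members passed the filter on low counts. Over both clones, 0 of 9 members were called, beside 0.00546% of all tested genes, and 1 member had an unadjusted p under 0.05, beside 16.9% of all genes; DESeq2 also called 0 members. In clone 4, 0 of 9 were called, beside 0.0382% of all genes, and 1 had an unadjusted p under 0.05, beside 9.9% of all genes, with 0 calls by DESeq2. In clone 8, 1 of 9 was called, beside 16.6% of all genes. For the difference of the responses, 1 of 9 was called, beside 2.83% of all genes. Between the clones in vehicle, 1 of 9 was called, beside 8.37% of all genes. The share of members called in clone 8, 1 of 9, is near that background. Of the clone 8 calls over all genes, 1465 were higher and 1576 lower, and library totals in place of TMM turned this into 2102 higher and 1074 lower.

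The median log2 fold change of the 9 members was 0.12 over both clones, against 0.04 for all tested genes. It was -0.14 in clone 4, against -0.005 for all genes, and 0.23 in clone 8, against 0.07. In clone 4 both 4OHT libraries lay above or below both vehicle libraries for 6 members, 1 higher and 5 lower, where 47.5% of all genes were so separated. In clone 8 they did so for 6 members, 4 higher and 2 lower, where 60.0% of all genes were so separated. Over both clones, no member separated all 4OHT libraries from all vehicle libraries, and 9.0% of all genes did. The clone 8 response, the difference of the responses and the comparison of the clones in vehicle share the clone 8 vehicle libraries and are not independent of each other.

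**Figure D3:**
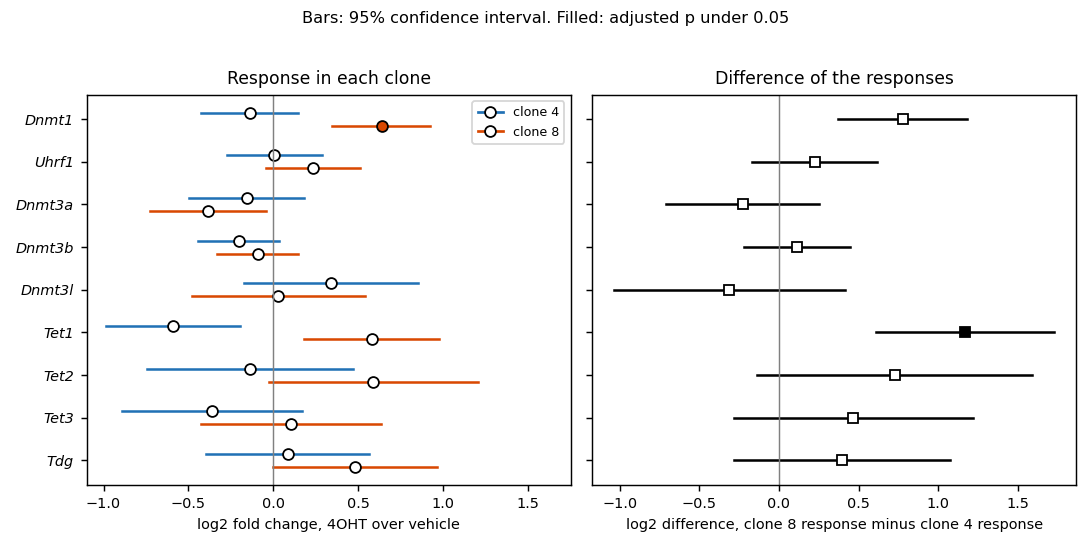
Log2 fold change of 4OHT over vehicle for each gene in clone 4 (blue) and clone 8 (orange), at left, and the difference of those responses, at right; bars are 95% confidence intervals and filled symbols have an adjusted p under 0.05. Dnmt1 in clone 8 (0.64) and the difference for Tet1 (1.17) are the filled symbols.

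Dnmt1 (ENSMUSG00000004099, chromosome 9, 20907209 to 20959888 in GRCm38, minus strand) encodes the maintenance methyltransferase. Its level was 241.5 and 262.5 CPM in the clone 4 vehicle libraries, 231.9 and 225.7 CPM in clone 4 with 4OHT, 143.6 and 171.8 CPM in the clone 8 vehicle libraries, and 225.8 and 264.4 CPM in clone 8 with 4OHT. The clone 8 vehicle libraries were the low ones, and the treated clone 8 libraries spanned nearly the same range as the 4 clone 4 libraries. In clone 8, Dnmt1 rose with 4OHT by 0.64 on the log2 scale (SE 0.13, 95% confidence interval 0.35 to 0.93; edgeR quasi-likelihood test, adjusted p = 0.0153), a 1.56-fold change. In clone 4 its log2 fold change was -0.14 (SE 0.13, edgeR adjusted p = 0.804). The difference of the responses was 0.78 (SE 0.18, interval 0.37 to 1.18) and missed the threshold with an edgeR adjusted p of 0.0557.

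In vehicle, Dnmt1 was lower in clone 8 than in clone 4, with a log2 fold change of -0.68 (SE 0.13, edgeR adjusted p = 0.0238). Its rise with 4OHT in clone 8 was 0.49 without replicate 1 of the clone 8 vehicle libraries. The call was lost there, as were all calls in clone 8 over all genes. A fit of clone 8 alone gave 0.61 with an edgeR adjusted p of 0.0796, and removal of each library's trend with gene length and GC content gave 0.63 with 0.0163. The difference of the responses was called after that correction (0.84, edgeR adjusted p = 0.0394). It was also called with library totals (0.88, edgeR adjusted p = 0.0487), at least 10 counts in every library (0.79, 0.0361), no filter (0.79, 0.00257) and the replicate block (0.78, 0.0499). DESeq2 called it as well (0.76, adjusted p = 0.00938), while the fit with RLE size factors did not. It was 0.89 without replicate 1 of the treated clone 8 libraries, and over the libraries left out in turn it went down to 0.63. The lower level in clone 8 vehicle lost its call without either clone 4 vehicle library (-0.72 and -0.60) and without replicate 1 of clone 8 vehicle (-0.54). Nearly all calls of that comparison over all genes were lost there too. The Dnmt1 call was also lost without either treated clone 4 library (-0.68 in each case), where the calls over all genes were far fewer as well. Extraembryonic ectoderm markers moved with Dnmt1: 10 of those 12 were called higher with 4OHT in clone 8. In vehicle, 10 were called lower in clone 8 than in clone 4. Visceral endoderm markers went the opposite way, with 5 of 15 called lower with 4OHT in clone 8 and 6 called higher in clone 8 vehicle. The part of either list in the result was not tested.

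Uhrf1 (chromosome 17, 56303321 to 56323486, plus strand) encodes the reader of hemimethylated CpG sites that recruits Dnmt1. It stood at 363.7 and 408.6 CPM in clone 4 vehicle, 361.2 and 414.4 CPM in clone 4 with 4OHT, 279.1 and 319.5 CPM in clone 8 vehicle, and 333.7 and 369.0 CPM in clone 8 with 4OHT. As for Dnmt1, the clone 8 vehicle libraries were the lowest of the 8. The log2 fold changes with 4OHT were 0.006 (SE 0.12, edgeR adjusted p = 0.996) in clone 4 and 0.23 (SE 0.12, interval -0.05 to 0.51, edgeR adjusted p = 0.223) in clone 8. Clone 8 against clone 4 in vehicle gave -0.37 (SE 0.12, edgeR adjusted p = 0.0972), which missed the threshold.

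**Figure D4:**
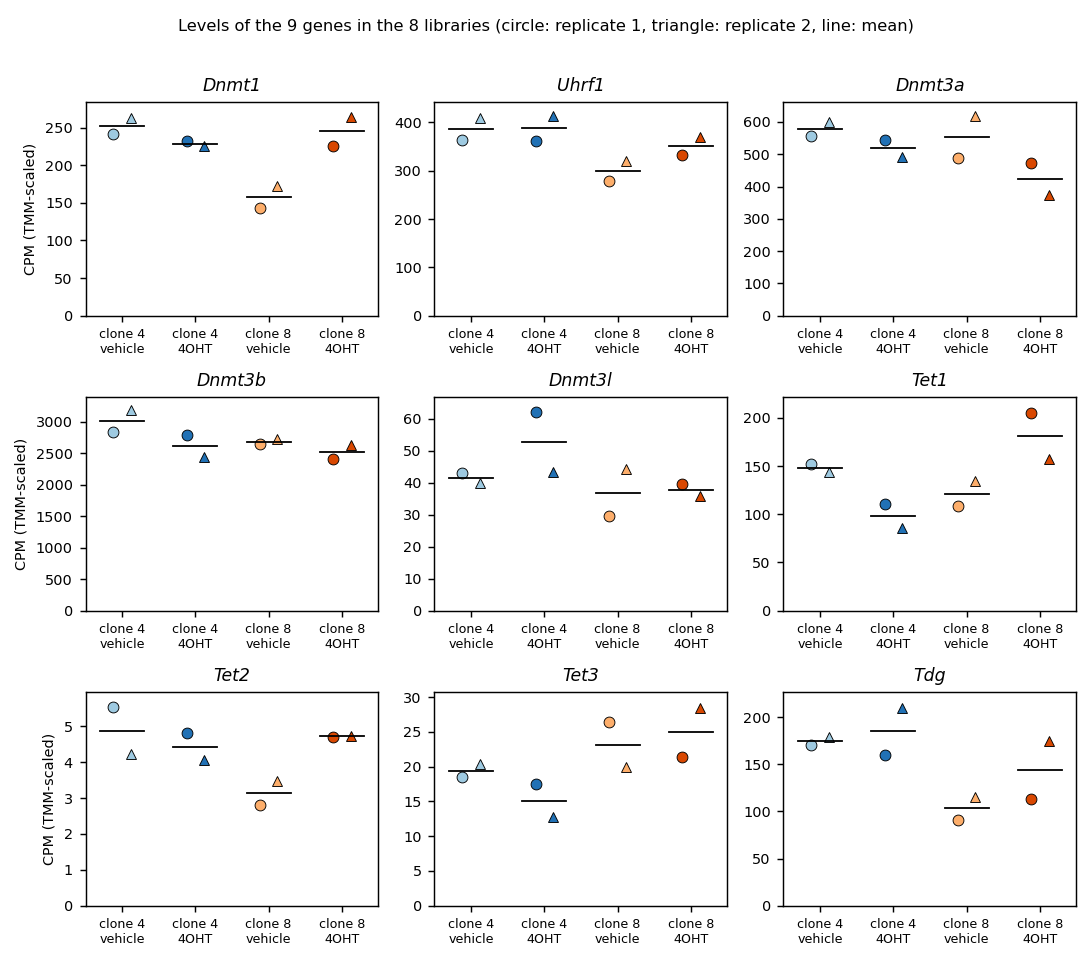
CPM (TMM-scaled, axes from 0) of each gene in the 8 libraries by clone and condition, with circles for replicate 1, triangles for replicate 2 and lines for the mean of 2 libraries. Dnmt1 is lowest in the clone 8 vehicle libraries (143.6 and 171.8 CPM) and Tet1 is highest in the treated clone 8 libraries (205.1 and 157.3 CPM).

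Dnmt3b (ENSMUSG00000027478, chromosome 2, 153649450 to 153687730, plus strand) encodes the main de novo methyltransferase of the epiblast. Its level was 2830 and 3188 CPM in clone 4 vehicle, 2785 and 2437 CPM in clone 4 with 4OHT, 2637 and 2724 CPM in clone 8 vehicle, and 2409 and 2621 CPM in clone 8 with 4OHT. The treated libraries lay below the vehicle libraries of their own clone, by small amounts, and the ranges over both clones overlapped. The log2 fold change was -0.20 in clone 4 (SE 0.10, edgeR adjusted p = 0.586), -0.09 in clone 8 (SE 0.10, edgeR adjusted p = 0.583) and -0.15 over both clones (SE 0.08, interval -0.33 to 0.04, edgeR adjusted p = 0.384). In clone 8 the sign turned to 0.03 under library totals. Epiblast marker sums were also lower with 4OHT, at 2974 to 3034 CPM against 3265 to 3385 CPM in clone 4. In clone 8 the sums were 2621 to 2972 CPM against 3459 to 3551 CPM. The part of these markers in the Dnmt3b values was not tested.

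Dnmt3a (chromosome 12, 3806007 to 3914443, plus strand) encodes the second de novo methyltransferase. It stood at 555.1 and 600.5 CPM in clone 4 vehicle, 545.3 and 490.8 CPM in clone 4 with 4OHT, 487.4 and 617.7 CPM in clone 8 vehicle, and 474.0 and 372.6 CPM in clone 8 with 4OHT. In each clone both treated libraries lay below both vehicle libraries, while the ranges over both clones overlapped. Over both clones its log2 fold change was -0.27 (SE 0.12, interval -0.53 to -0.01), with the lowest p of the 9 members (unadjusted 0.0431, edgeR adjusted 0.285). The value was -0.16 in clone 4 (SE 0.15, edgeR adjusted p = 0.816) and -0.38 in clone 8 (SE 0.15, edgeR adjusted p = 0.109). Without replicate 1 of the treated clone 8 libraries the clone 8 value was -0.57 and passed the threshold (edgeR adjusted p = 0.0445), and without replicate 2 of that pair it was -0.22 (0.3773). Without replicate 2 of clone 8 vehicle it was -0.24. Epiblast markers moved the same way, with 2 of 10 above 0 in each clone. Of those 10, 4 were called lower with 4OHT in clone 8 and 0 in clone 4. The part of these markers in the Dnmt3a values was not tested.

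Dnmt3l (chromosome 10, 78041947 to 78063622, plus strand) encodes the catalytically inactive cofactor. It stood at 43.2 and 40.0 CPM in clone 4 vehicle, 62.0 and 43.4 CPM in clone 4 with 4OHT, 29.5 and 44.4 CPM in clone 8 vehicle, and 39.5 and 35.8 CPM in clone 8 with 4OHT. The high library was replicate 1 of treated clone 4, and the other 7 libraries lay between 29.5 and 44.4 CPM. The log2 fold change was 0.34 in clone 4 (SE 0.23, interval -0.17 to 0.85, edgeR adjusted p = 0.720) and 0.03 in clone 8 (SE 0.23, edgeR adjusted p = 0.942), where its sign turned in 3 of the alternative fits.

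Tet1 (ENSMUSG00000047146, chromosome 10, 62804570 to 62908996, minus strand) encodes the dioxygenase that made up most of the Tet transcripts here. Its level was 152.3 and 143.7 CPM in clone 4 vehicle, 110.6 and 86.0 CPM in clone 4 with 4OHT, 108.4 and 134.4 CPM in clone 8 vehicle, and 205.1 and 157.3 CPM in clone 8 with 4OHT. The treated libraries lay below vehicle in clone 4 and above vehicle in clone 8, without overlap in either clone. The log2 fold change was -0.59 in clone 4 (SE 0.18, interval -0.99 to -0.19, edgeR adjusted p = 0.280) and 0.58 in clone 8 (SE 0.18, interval 0.18 to 0.97, edgeR adjusted p = 0.0524), neither past the threshold. Over both clones these cancelled to -0.006 (SE 0.23, edgeR adjusted p = 0.992). The difference of the responses, clone 8 minus clone 4, was 1.17 (SE 0.25, interval 0.61 to 1.73) and passed with an edgeR adjusted p of 0.0470.

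The Tet1 difference lay close to the threshold. It kept its call without replicate 1 (0.96, edgeR adjusted p = 0.0477) or replicate 2 (1.35, 0.0175) of the treated clone 8 libraries. Its call was lost without replicate 1 (1.10) or 2 (1.18) of clone 4 vehicle. The same held without replicate 1 of clone 8 vehicle (0.997) and without replicate 1 (1.36) or 2 (0.997) of treated clone 4. Nearly all calls of the difference over all genes were lost in those fits too, so the loss is not particular to Tet1. The Tet1 call was also lost without replicate 2 of clone 8 vehicle (1.30), where the calls over all genes fell little. Removal of each library's trend with gene length and GC content brought the difference to 0.77 (SE 0.25, edgeR adjusted p = 0.132), with -0.43 in clone 4 and 0.34 in clone 8. Without replicate 2 of treated clone 8 the clone 8 rise itself passed (0.76, edgeR adjusted p = 0.0337), as it did in DESeq2 (0.56, adjusted p = 0.0168), and without replicate 1 of that pair it was 0.37 and did not pass. Visceral endoderm markers went the opposite way to Tet1 in the difference, with 7 of 15 called lower, and extraembryonic ectoderm markers the same way, with 6 of 12 called higher; their part in the Tet1 values was not tested.

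Tet3 (chromosome 6, 83362373 to 83459084, minus strand) encodes the Tet enzyme best known from the zygote. It stood at 18.5 and 20.3 CPM in clone 4 vehicle, 17.5 and 12.7 CPM in clone 4 with 4OHT, 26.5 and 19.9 CPM in clone 8 vehicle, and 21.4 and 28.5 CPM in clone 8 with 4OHT. Both treated clone 4 libraries lay below their vehicle libraries and the clone 8 groups overlapped. The log2 fold change was -0.36 in clone 4 (SE 0.24, edgeR adjusted p = 0.714) and 0.10 in clone 8 (SE 0.24, edgeR adjusted p = 0.793), and the difference was 0.47 (SE 0.33, interval -0.28 to 1.22, edgeR adjusted p = 0.434).

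Tet2 (chromosome 3, 133463679 to 133545139, minus strand), the Tet gene known for its role in blood cells, had the fewest reads, with 101 to 294 counts a library. It stood at 5.54 and 4.23 CPM in clone 4 vehicle, 4.81 and 4.07 CPM in clone 4 with 4OHT, 2.82 and 3.46 CPM in clone 8 vehicle, and 4.72 CPM in each treated clone 8 library. The clone 8 vehicle libraries were the lowest of the 8. The log2 fold change in clone 8 was 0.59 (SE 0.27, interval -0.03 to 1.20, edgeR adjusted p = 0.166), and in clone 4 it was -0.14 (SE 0.27, edgeR adjusted p = 0.924).

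Tdg (chromosome 10, 82629828 to 82650799, plus strand) encodes the glycosylase that acts after Tet oxidation. It stood at 170.5 and 178.8 CPM in clone 4 vehicle, 160.4 and 209.9 CPM in clone 4 with 4OHT, 91.1 and 115.8 CPM in clone 8 vehicle, and 113.6 and 175.1 CPM in clone 8 with 4OHT. The clone 8 libraries reached clone 4 levels only in replicate 2 of the treated pair. The log2 fold change was 0.48 in clone 8 (SE 0.21, interval -0.002 to 0.96, edgeR adjusted p = 0.152) and 0.08 in clone 4 (SE 0.21, edgeR adjusted p = 0.946). The clone 8 value depended on single libraries: it was 0.76 and passed without replicate 1 of treated clone 8 (edgeR adjusted p = 0.0281), 0.14 without replicate 2 of that pair (0.6665) and 0.30 without replicate 1 of clone 8 vehicle. In vehicle, clone 8 against clone 4 gave -0.76 (SE 0.21, edgeR adjusted p = 0.0614), which passed without replicate 1 or replicate 2 of treated clone 8 (edgeR adjusted p of 0.0190 in each case), in DESeq2 (adjusted p = 0.00769) and in a fit of the vehicle libraries alone. It did not pass without any one of the other 6 libraries, with values from -0.91 to -0.58 and edgeR adjusted p up to 0.4103, nor after the correction for length and GC content (-0.62, edgeR adjusted p = 0.101).

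In vehicle, 8 of 9 members thus had a log2 fold change below 0 in clone 8 against clone 4, with a median of -0.285 against 0.004 for all tested genes. The groups did not overlap for 6 members, all lower in clone 8, where 58.8% of all genes were so separated and 29.2% in that direction. As a description over 8 libraries that share depth and group structure, log2 CPM of Uhrf1 and Tdg had a Pearson correlation of 0.957. Pairs with Dnmt1 gave 0.865 for Tet2, 0.851 for Uhrf1 and 0.816 for Tdg. Tet1 had 0.328 against Dnmt1 and -0.118 against Uhrf1, and Dnmt3b had 0.239 against Dnmt1.

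Of 74 other genes in 7 lists of the pathway, 73 were tested. None was called by edgeR's quasi-likelihood test over both clones or in clone 4, where 9 and 6 had an unadjusted p under 0.05, beside 16.9% and 9.9% of all genes, and DESeq2 called 4 and 1. In clone 8, 8 were called higher and 6 lower, beside 16.6% of all genes, and the median of the 73 was 0.07 against 0.07 for all tested genes. Of 6 maintenance partners, 1 fell: Uhrf2, the close relative of Uhrf1, by 1.28 on the log2 scale (SE 0.26, edgeR adjusted p = 0.0150). Uhrf2 was highest in the clone 8 vehicle libraries, at 29.0 and 18.0 CPM. With 4OHT it was at 10.0 and 9.39 CPM in clone 8, against 9.52 to 12.25 CPM in clone 4. Of 8 methyl-CpG readers, Mbd1 rose (0.92, SE 0.21, edgeR adjusted p = 0.0218), and of 13 genes of base excision repair, Lig3, a DNA ligase, rose (0.82, SE 0.20, 0.0251); none of either list fell. These names, and Zfp57, Ehmt2 and Tdrd1 below, were added after their values were seen.

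Among 7 Tet partners and suppliers of 2-oxoglutarate, Ogt rose and Cxxc5 fell in clone 8. Ogt, the enzyme that adds O-linked N-acetylglucosamine and binds Tet proteins, stood at 59.9 and 93.3 CPM in clone 8 vehicle and 197.6 and 160.6 CPM with 4OHT, against 135.4 to 162.3 CPM in the 4 clone 4 libraries. Its log2 fold change in clone 8 was 1.23 (SE 0.20, edgeR adjusted p = 0.0103). Cxxc5, a CXXC zinc finger protein that regulates Tet2, stood at 98.3 and 74.9 CPM in clone 8 vehicle and 47.0 and 50.4 CPM with 4OHT, against 46.9 to 56.8 CPM in clone 4. Its log2 fold change in clone 8 was -0.83 (SE 0.15, edgeR adjusted p = 0.0124). For both genes the clone 8 vehicle libraries were the ones that stood apart, and the treated clone 8 libraries lay near clone 4.

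Of 15 tested chromatin regulators of DNA methylation, 3 rose and 3 fell in clone 8. Those that rose were Setdb1 (0.60), Setd2 (0.61) and Zfp57 (1.21), a zinc finger protein that binds imprints, and those that fell were Trim28, Kdm1a and Ehmt2 (-0.83), a histone methyltransferase. Trim28, the corepressor that keeps methylation at imprints and retroelements, stood at 745.5 and 585.1 CPM in clone 8 vehicle and 348.5 and 277.5 CPM with 4OHT, against 254.3 to 344.9 CPM in clone 4. Its log2 fold change in clone 8 was -1.09 (SE 0.18, edgeR adjusted p = 0.0108). Kdm1a, a histone demethylase that also acts on Dnmt1 protein, fell by 1.37 (SE 0.25, edgeR adjusted p = 0.0115). Its clone 8 vehicle libraries stood apart, at 74.6 and 59.05 CPM. With 4OHT it was at 32.6 and 19.0 CPM in clone 8, against 26.55 to 33.6 CPM in clone 4. In the methyl donor cycle, 1 of 11 genes rose: Mtrr, which reactivates methionine synthase, by 0.82 (SE 0.15, edgeR adjusted p = 0.0115). Mtrr was lowest in the clone 8 vehicle libraries, at 34.2 and 39.0 CPM. With 4OHT it was at 61.6 and 67.9 CPM in clone 8, against 53.3 to 66.4 CPM in clone 4. Without replicate 1 of clone 8 vehicle, all calls in clone 8 over all genes were lost, those of every pathway gene among them. The values there were Ogt 0.92, Cxxc5 -0.64, Uhrf2 -0.91, Trim28 -0.93, Kdm1a -1.22 and Mtrr 0.71.

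**Figure D5:**
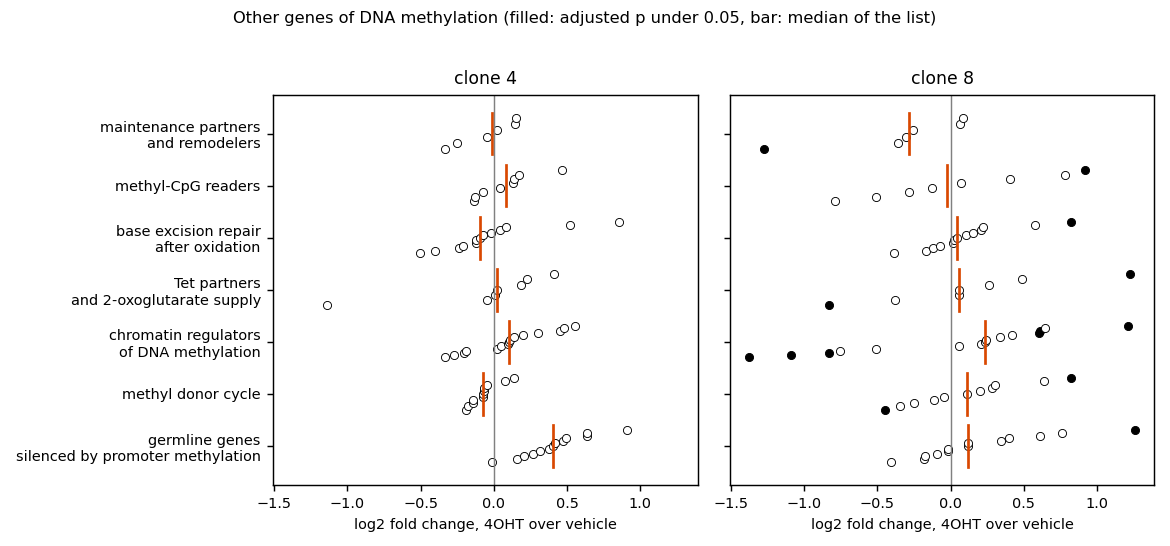
Log2 fold change of 4OHT over vehicle for the genes of 7 lists in clone 4 (left) and clone 8 (right); each circle is a gene, filled where the adjusted p was under 0.05, and the bar is the median of the list. The 14 filled circles, 8 higher and 6 lower, are all in clone 8.

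The responses differed between the clones for Setd2 (0.95, SE 0.20, edgeR adjusted p = 0.0473), the histone H3 lysine methyltransferase whose mark Dnmt3 enzymes read, for Trim28 (-1.18, SE 0.26, edgeR adjusted p = 0.0491) and for Cxxc5 (-1.06, SE 0.22, edgeR adjusted p = 0.0447). These were 3 of 73, beside 2.83% of all genes. Each lost its call without either clone 4 vehicle library, without replicate 1 of clone 8 vehicle and without either treated clone 4 library. Nearly all calls of the difference over all genes were lost in those fits too. Values there ran from 0.812 to 0.998 for Setd2, from -1.39 to -0.99 for Trim28 and from -1.09 to -0.87 for Cxxc5. Setd2 also lost its call without replicate 2 of clone 8 vehicle (1.04). Without replicate 2 of treated clone 8 both Setd2 (0.83) and Trim28 (-1.03) lost theirs. After the correction for length and GC content the values were 0.77, -1.06 and -0.90, and all 3 missed the threshold, at edgeR adjusted p of 0.0844, 0.0562 and 0.0589.

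Between the clones in vehicle, 6 of the 73 were higher in clone 8 and 9 lower, beside 8.37% of all genes. The higher ones included Trim28 (1.21, SE 0.19, edgeR adjusted p = 0.0174), Cxxc5 (0.87, SE 0.15, 0.0216) and Uhrf2 (1.26, SE 0.26, 0.0279). The lower ones included Mthfd1 (-0.68, SE 0.13, edgeR adjusted p = 0.0247), a folate enzyme that feeds the methyl donor cycle, Setdb1 (-0.66, SE 0.13, 0.0258), the histone methyltransferase that Trim28 recruits, and Setd2 (-0.70, SE 0.14, 0.0281). All 6 lost their call without either clone 4 vehicle library and without replicate 1 of clone 8 vehicle. Nearly all calls of that comparison over all genes were lost there too. Mthfd1, Uhrf2 and Setd2 also lost theirs without either treated clone 4 library, and Setdb1 without replicate 1 of that pair. The calls over all genes were far fewer in those fits as well.

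Germline genes that are silenced by promoter methylation serve as a list of targets of these enzymes. In clone 4, 12 of 13 had a log2 fold change above 0, with a median of 0.41 against -0.005 for all tested genes. All 15 visceral endoderm markers were also above 0 there, with a median of 1.72 and 0 called, and their part in the germline values was not tested. None of the 13 germline genes was called by edgeR's quasi-likelihood test, beside 0.0382% of all genes. Of them, 2 had an unadjusted p under 0.05, beside 9.9% of all genes, and DESeq2 called 0. In clone 8, 7 of 13 were above 0, with a median of 0.12 against 0.07. There 1 of 13 was called, beside 16.6% of all genes. It was Tdrd1, a Tudor protein of the piRNA pathway (1.26, SE 0.31, edgeR adjusted p = 0.0270). Levels were low: Ddx4, an RNA helicase of germ cells, stood at 19.2 and 21.2 CPM in clone 4 vehicle and 32.5 and 30.5 CPM in clone 4 with 4OHT, and at 13.9 and 19.0 CPM against 18.4 and 13.9 CPM in clone 8. Dazl, a germ cell RNA-binding protein, was at 8.08 and 10.3 CPM in clone 4 vehicle and 11.1 CPM in each treated clone 4 library. Both genes were picked after their values were seen. DNA methylation itself was not measured in these libraries.

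By a rule of the highest Pearson correlation of log2 CPM over the 8 libraries among 9160 tested genes, the genes most like Dnmt3b were 1600012H06Rik (0.990), Rbbp9 (0.974) and Cct6a (0.956). Those most like Dnmt3l were Tdrd12 (0.939), Rxylt1 (0.932) and Slc35b2 (0.909). Those most like Tet1 were Ppp1r9a (0.968), Bdp1 (0.960) and Tex9 (0.959). Bdp1, a subunit of the RNA polymerase III initiation factor, ran as Tet1 did from 34.8 CPM in a treated clone 4 library to 60.7 CPM in a treated clone 8 library. Highest values among so many genes over 8 libraries are a description of these libraries and carry no p.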

How the data were processed

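RNA was sequenced from 8 libraries of E5.5 epiblast, 2 for each of 4 groups (vehicle or 4OHT, clone 4 or clone 8). The authors deposited raw read counts per Ensembl gene, 1 column a library, and the whole-number values with differing totals show no normalization. Per the submitters' processing notes, bcl2fastq 2.19.1, STAR 2.5.3a and mm10 were used; the counting program, the annotation and the use of strand are not given in the sources used here. Symbols matched 52403 of 52636 identifiers, and 233 did not match. Coordinates and exonic lengths came from GENCODE M21 (GRCm38), and promoter sequences from RefSeq (GRCm38.p6).

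The groups came from the sample titles. Genes were kept by filterByExpr of edgeR 4.0.16 (R 4.3.3) over the 4 groups with a minimum count of 10, which left 18321. Library sizes were scaled by TMM. The comparison over both clones was a quasi-likelihood fit with clone and treatment as terms; responses within a clone, their difference, and the clones in vehicle came from a fit of the 4 groups. Benjamini-Hochberg adjustment ran over the 18321 genes, and adjusted p under 0.05 made a call. SE is the log2 fold change divided by the square root of F. The procedure was tested on simulated counts. CPM relates a count to the TMM-scaled size of its library, and log2 CPM adds a prior of 2. Biological variation (BCV) came to 0.321 in the additive fit and 0.266 with 4 groups. No replicates were merged, since their chi-square per degree of freedom, 20.9 to 61.1, was above that of sampling noise.

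The 9 members, the lists and the naming rule were chosen with earlier results of these data known. The rule named all members in every comparison, the listed genes past the threshold (at most 6 of lowest p in a comparison) and the 3 genes most correlated with Dnmt3b, Dnmt3l and Tet1; genes named outside it are said to be so. Alternatives were other scalings (RLE size factors, library totals), filters, thresholds and terms, DESeq2 1.42.0, single-clone fits, the replicate number as a block and each library left out in turn. A correction for length and GC content by splines, on 18293 genes with both values, was chosen after seeing the data. The result of 1 gene of the pathway lists is included in the counts over all lists and is not reported here.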

Additional observations from a re-analysis of the deposited data

Results flagged for a closer look

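Of 34 values tested for a library far from the others of its condition (4 libraries), 5 were so. Chance would give about 1.7 if the 4 libraries of a condition were alike. Each condition mixes 2 clones and the values share the same 8 libraries, so that figure is no test of the 5. Dnmt1 in replicate 2 of treated clone 8, at 264.4 CPM, stood above the other 4OHT libraries, and Tet2 in replicate 2 of treated clone 4, at 4.07 CPM, stood below them. The total of replicate 2 of treated clone 4, 72.5 M counts (M, mega), was high among the 4OHT libraries. Replicate 2 of treated clone 8 was low in the sum of the epiblast markers, at 2621 CPM, and high in that of the ERK response genes, at 1706 CPM.

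The response to 4OHT differed between the clones, by the test of the difference itself (edgeR), for Tet1 (1.17, clone 8 minus clone 4), Setd2 (0.95), Cxxc5 (-1.06) and Trim28 (-1.18). In these 4 genes the difference rests in part on the clone 8 vehicle libraries, which also differ in marker sums and in the balance of long and short genes; the part of these was not tested beyond the corrected values given.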

How the results depend on the processing

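The number of members called stayed at 0 over both clones under all alternatives run. In clone 4 it was 1 with no expression filter (Tet1, -0.57, adjusted p = 0.00790) and 0 under the others. In clone 8 (1 by the design chosen) it was 0 at an adjusted p under 0.01 and in clone 8 alone, 2 with library totals, with at least 10 counts in every library and in DESeq2, and 4 with no filter. For the difference (1, Tet1) it was 0 at the stricter threshold and 2, Tet1 and Dnmt1, with library totals, no filter, at least 10 counts and DESeq2. With the replicate block and after the length and GC correction it was 1, Dnmt1 in place of Tet1. For the clones in vehicle (1) it was 0 at the stricter threshold, 3 with no filter, and 2 with at least 10 counts, DESeq2, the replicate block and the vehicle libraries alone. Leaving out each library gave 0 to 0 members over both clones and in clone 4, 0 to 3 in clone 8, 0 to 2 for the difference and 0 to 2 in vehicle.

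Over all genes the calls over both clones (1) became 1024 in DESeq2, 1337 with no filter and 1063 when the 2 clones' own responses were averaged. In clone 4 (7) they were 466, 728 and, in clone 4 alone, 220. In clone 8 (3041) they were 272 at the stricter threshold and 0 in clone 8 alone; for the difference (519) they were 1806 in DESeq2 and 2114 with no filter; in vehicle (1534) they were 3066 and 2901. Leaving out 1 library gave 0 to 259 in clone 4, 0 to 3218 in clone 8, 0 to 1205 for the difference and 0 to 2491 in vehicle. Library totals moved the median log2 fold change of all genes in clone 8 from 0.07 to 0.19.

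Signs turned for Tet1 over both clones (0.064 with library totals, 0.015 with no filter, 0.005 with at least 10 counts, 0.053 without a clone term; -0.21 to 0.20 without single libraries), Uhrf1 in clone 4 (-0.057 after length and GC correction; -0.096 to 0.10 without single libraries), Dnmt3b in clone 8 (0.03 with library totals) and Dnmt3l in clone 8 (-0.001 in clone 8 alone; -0.26 to 0.32). Without single libraries they also turned for Tet3 over both clones (-0.26 to 0.002) and in clone 8 (-0.12 to 0.305), Tet2 (-0.32 to 0.072) and Tdg (-0.12 to 0.265) in clone 4, Dnmt3b in the difference (-0.003 to 0.21), and Dnmt3a (-0.22 to 0.11) and Dnmt3l (-0.47 to 0.11) in vehicle; none of these was called. The cause was not tested.

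The labels do not say whether same-numbered libraries shared more than a number. Their deviations correlated at 0.095 in clone 4 and -0.01 in clone 8, which with 2 libraries a group cannot exclude a shared batch. With the replicate block, the Tet1 difference was 1.17 (adjusted p = 0.0619), the Dnmt1 difference 0.78 (0.0499), the Cxxc5 difference -1.04 (0.0603) and Tdg in vehicle -0.77 (0.0215); calls over all genes were 0 over both clones, 0 in clone 4, 2897 in clone 8, 451 for the difference and 1581 in vehicle. With 2 libraries a group, only larger changes could be called.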
